A study of Mus musculus with 4 samples.

Results

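Receptors and activation genes of mature neutrophils were followed in mouse synovium, the tissue that lines the joint. The 8 listed genes were Fpr1, Fpr2, Trem1, Trem3, Ly6g, Retnlg, Cd177 and Padi4, and each was taken by its symbol from the 22180 genes that the arrays measured with a probe set of a single symbol. A gene with several probe sets was represented by the one with the highest mean over the 4 arrays, and each measured gene of the 8 had 1 probe set. Of the 8 genes, 7 were measured this way, and Fpr1 was not analysed here.

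Total RNA was hybridised to 4 Affymetrix MoGene 2.0 ST arrays, each with RNA of 1 pool of male C57BL/6J mice aged 12 weeks. The nonarthritic group was 2 pools of 3 mice each, and the arthritic group was 2 pools of 10 mice each, taken on day 10, the labelled peak of inflammation. Arthritis came from intraperitoneal doses of 150 microlitres each of disease-transferring serum, given on day 0, day 2 and again on day 7, and nonarthritic mice were given phosphate buffered saline instead. The labels name K/BxN as the serum strain for both groups, although the protocols give the nonarthritic mice no serum, and they put the nonarthritic pools at day 0. The disease was passed on to the host mice with serum, so the model holds the inflammatory phase set off by transferred antibodies. The groups also differ in pool size and in labelled day, and these cannot be told apart from arthritis. Tissue was taken around the ankle (tibiotalar) joint, and lubricin, Prg4, a defining product of the synovial lining, had a log2 signal of 13.27 to 13.66 on the arrays. Other synovial fibroblast markers differed between the groups, as given below.

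Neutrophils are short-lived phagocytes made in the bone marrow that enter inflamed joints from the blood. While they mature they switch off the genes of their early granules and switch on receptors that sense bacteria and damaged tissue. Formyl peptide receptors read peptides that carry the formyl group of bacterial and mitochondrial proteins, TREM receptors amplify inflammatory signals through the adaptor DAP12, and PAD4 turns arginines of histones into citrulline, a step tied to the release of chromatin traps. Serum transfer arthritis is known to depend on neutrophils.

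The 7 measured genes were all higher in arthritic synovium, with log2 fold changes from 0.93 to 3.17 and a median of 2.15, against a median of 0.005 over all genes tested. Each passed the test across all genes (limma, Benjamini-Hochberg adjusted p under 0.05), where 8.72% of all genes rose and 6.62% fell. Both arthritic pools lay above both nonarthritic pools in the 7 genes, as in 30.2% of all genes. The change was at least 2-fold in 6 of them, all but Cd177. Trem1 was the 22nd highest rise of the 22180 genes, Ly6g ranked 49, Retnlg 54, Fpr2 97, Trem3 261, Padi4 530 and Cd177 945.

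Leaving out single pools changed these calls. The number of the 7 genes that rose was 5 without nonarthritic pool 1, 4 without nonarthritic pool 2, 5 without arthritic pool 1 and 1, Retnlg, without arthritic pool 2. In the same order, the number of all genes that rose went from 1933 to 637, 144, 232 and 47. In bulk tissue, more cells of a type and more RNA per cell cannot be told apart.

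**Figure D1:**
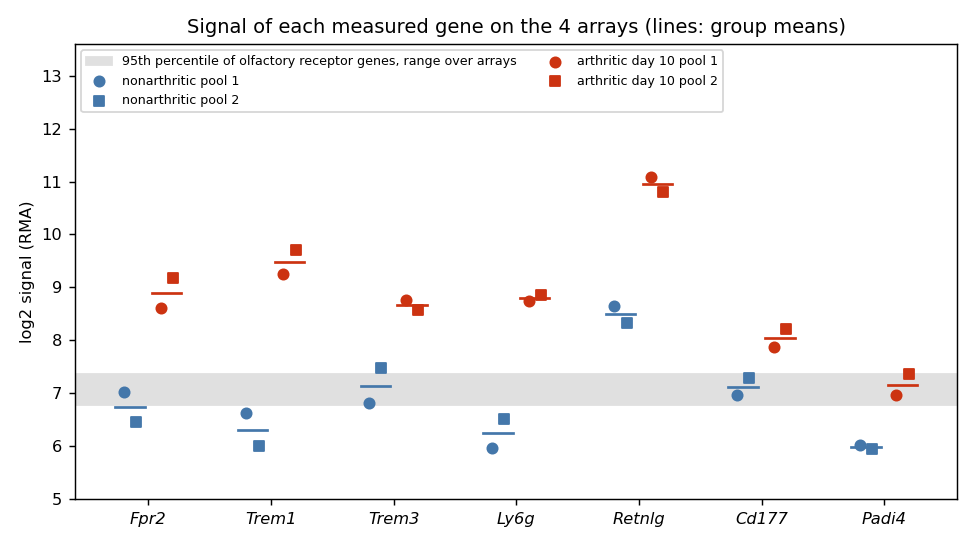
Log2 signal (RMA) of the 7 measured genes on the 4 arrays, with blue points for nonarthritic and red points for arthritic day 10 pools, circles for pool 1, squares for pool 2 and lines for group means. The grey band spans the 95th percentiles of olfactory receptor genes on the arrays, 6.77 to 7.36, and every red point lies above both blue points of its gene.

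The promoter sequences of 4 of these genes are shown because they share a short ETS-type motif. RefSeq windows (build GRCm38.p6) were matched by symbol for 7 of the 8 genes, all but Trem3, and the 250 bases before the annotated start were searched. Each is written 5′ to 3′ in the direction of its gene, with the matches in capitals. For Ly6g, which has 2 annotated starts, the window of the first is printed.
Trem1 (chr17:48232489-48232738, plus strand): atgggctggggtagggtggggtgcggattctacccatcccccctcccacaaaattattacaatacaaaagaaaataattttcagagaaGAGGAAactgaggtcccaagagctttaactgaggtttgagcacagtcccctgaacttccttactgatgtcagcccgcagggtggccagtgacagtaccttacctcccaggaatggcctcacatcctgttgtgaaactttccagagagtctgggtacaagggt
Ly6g (chr15:75155011-75155260, plus strand): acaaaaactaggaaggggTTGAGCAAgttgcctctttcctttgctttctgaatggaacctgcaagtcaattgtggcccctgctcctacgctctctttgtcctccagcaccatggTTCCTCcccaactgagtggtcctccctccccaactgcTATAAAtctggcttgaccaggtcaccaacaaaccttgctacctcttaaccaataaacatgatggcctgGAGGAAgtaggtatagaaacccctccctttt
Cd177 (chr7:24760312-24760561, minus strand): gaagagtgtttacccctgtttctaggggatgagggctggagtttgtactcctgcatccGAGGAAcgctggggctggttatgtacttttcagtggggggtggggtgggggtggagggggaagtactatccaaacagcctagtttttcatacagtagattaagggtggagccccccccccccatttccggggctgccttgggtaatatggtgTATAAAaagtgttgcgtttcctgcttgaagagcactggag
Fpr2 (chr17:17887574-17887823, plus strand): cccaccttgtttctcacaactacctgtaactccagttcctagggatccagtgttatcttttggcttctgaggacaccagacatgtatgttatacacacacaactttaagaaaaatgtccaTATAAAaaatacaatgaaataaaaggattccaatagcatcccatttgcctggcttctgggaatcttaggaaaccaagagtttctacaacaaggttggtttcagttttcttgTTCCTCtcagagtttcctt

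The letters GAGGAA, the core of sites read by PU.1 and other ETS factors of myeloid cells, or their reverse complement, stood in the windows of these 4 of 7 genes and in 23.3% of all 32851 promoter windows. Counts of the 7 are per gene, with both Ly6g windows searched, and percentages are per window. The gene strand match ended 26 bases before the first Ly6g start and 94 before the other, each with another on the other strand. Matches lay 157 to 162 bases before the start in Trem1, 187 to 192 in Cd177 and 14 to 19 in Fpr2. TATAAA, read on the gene strand, stood in 5 of the 7 windows (Cd177, Fpr1, Fpr2, Ly6g and Padi4) and in 7.59% of all windows. In Cd177 and Padi4 it began 40 and 31 bases before the start, and in Fpr2 and Fpr1 130 and 227 bases before it. In Ly6g it began 99 bases before the first start and 167 before the other. The C/EBP-type letters TTGCNNAA were found, with both strands searched, in Retnlg and before the first start of Ly6g only (9.56% of all windows). The AP-1 letters TGANTCA, searched the same way, were found in Padi4 (6.75%). TGTGGT, the RUNX core, searched on both strands, had 0 matches among the 7 genes, against 14% of all windows. These are letter matches and not measured binding.

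Trem1 encodes a receptor of neutrophils and monocytes that amplifies signals of Toll-like receptors, and it had the highest fold change of the 7. Its log2 signal was 6.62 and 6.00 in nonarthritic pools 1 and 2, and 9.26 and 9.70 in arthritic pools 1 and 2. The arthritic pools stood far above the nonarthritic ones, with gaps of 0.62 and 0.44 between pools of a group. Trem1 rose by 3.17 ± 0.24 on the log2 scale (SE, limma adjusted p = 0.000261), which is 9-fold. Both nonarthritic values lay under the 95th percentiles of 1105 olfactory receptor genes on their arrays (6.86 and 7.36). Those receptors are a stand-in for background in a tissue that does not use them. The nonarthritic level of Trem1 was thus not shown to be above background, and its fold change may be understated.

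Trem3, next to Trem1 in the same gene cluster, encodes a second activating TREM receptor of mouse myeloid cells. It read 6.81 and 7.47 in the nonarthritic and 8.76 and 8.58 in the arthritic pools. Here nonarthritic pool 2 was the higher of its pair, the reverse of Trem1. Nonarthritic pool 1 lay just under the olfactory receptor percentile of its array, 6.86. Trem3 rose by 1.53 ± 0.23 on the log2 scale (adjusted p = 0.00392), and its 95% interval ended at 2.06, below that of Trem1, 2.61 to 3.73. The difference between the 2 genes was not itself tested. With single pools left out, the log2 fold change of Trem3 ran from 1.20 to 1.86.

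Fpr2 encodes a formyl peptide receptor that also binds serum amyloid A and annexin A1. Its log2 signal was 7.02 and 6.46 in the nonarthritic pools and 8.60 and 9.18 in the arthritic pools. The groups did not overlap, and the pools of each group stood 0.56 and 0.58 apart. Nonarthritic pool 2 lay under the olfactory receptor percentile of its array, 7.36. Fpr2 rose by 2.15 ± 0.25 on the log2 scale (adjusted p = 0.00135). Its adjusted p was 0.0736 without nonarthritic pool 2 and 0.0839 without arthritic pool 2, with log2 fold changes of 1.87 and 1.86.

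Ly6g encodes the surface protein bound by antibodies used to mark and deplete mouse neutrophils. It read 5.97 and 6.51 in the nonarthritic pools and 8.74 and 8.86 in the arthritic pools. The arthritic pools were close to each other, 0.12 apart, and the nonarthritic values lay under the olfactory receptor percentiles. Ly6g rose by 2.56 ± 0.21 on the log2 scale (limma adjusted p = 0.000319), which may be understated for the same reason as in Trem1. The Ly6 genes have near-identical copies, so its probes may read more than 1 gene.

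Retnlg encodes resistin-like gamma, a secreted protein of mouse neutrophils and bone marrow. Its log2 signal was 8.65 and 8.33 in the nonarthritic pools and 11.09 and 10.81 in the arthritic pools. It is the member whose nonarthritic values both lay above the olfactory receptor percentiles. Retnlg rose by 2.46 ± 0.19 on the log2 scale, 5.5-fold (adjusted p = 0.000238), and it kept the call without each pool, with adjusted p-values of 0.0196 to 0.0495.

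Padi4, the nuclear arginine deiminase, read 6.01 and 5.95 in the nonarthritic and 6.96 and 7.36 in the arthritic pools. The nonarthritic pools were almost equal, 0.06 apart, but under the olfactory receptor percentiles, and the arthritic values lay just above those of their own arrays, 6.77 and 6.94. The size of the Padi4 change is uncertain, since the values of both groups were near or under the percentiles. Padi4 rose by 1.18 ± 0.18 on the log2 scale (limma adjusted p = 0.00461). Its adjusted p was 0.0644 without nonarthritic pool 1, 0.109 without nonarthritic pool 2 and 0.0972 without arthritic pool 2.

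Cd177 encodes a surface glycoprotein that binds PECAM-1 on endothelium and presents proteinase 3 on neutrophils. It read 6.96 and 7.28 in the nonarthritic and 7.88 and 8.21 in the arthritic pools. Nonarthritic pool 2 lay just under the olfactory receptor percentile of its array, 7.36. The lowest arthritic value stood above the highest nonarthritic value by less than for the other members. Cd177 rose by 0.93 ± 0.19 on the log2 scale, 1.9-fold (adjusted p = 0.0154), and it lost the call without any 1 of the 4 pools, with adjusted p-values of 0.091 to 0.182.

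**Figure D2:**
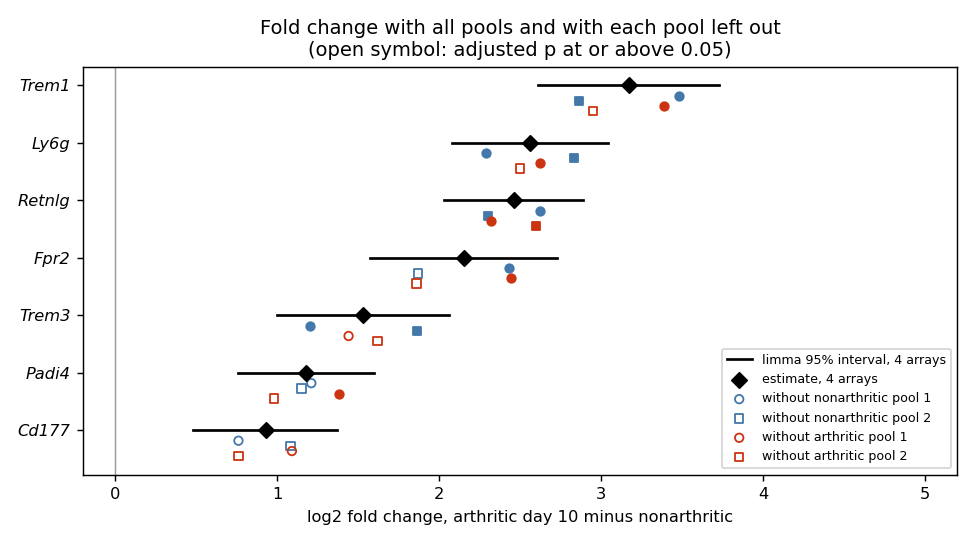
Log2 fold change (arthritic day 10 minus nonarthritic) of the 7 genes, with black diamonds and lines for the estimate from 4 arrays and its limma 95% interval, and small points for the estimate with 1 pool left out, open where the adjusted p was at or above 0.05. The direction held in all 28 such estimates, and 15 kept an adjusted p under 0.05, with Cd177 open throughout and Retnlg filled throughout.

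In the order of fold changes, Trem1, Ly6g, Retnlg and Fpr2 had overlapping 95% intervals, from 1.57 to 3.73 in all. Trem3, Padi4 and Cd177 formed the lower end, with intervals that overlapped each other and spanned 0.48 to 2.06. The intervals of Fpr2, 1.57 to 2.73, and Retnlg, 2.03 to 2.89, also overlapped that of Trem3, and that of Fpr2 overlapped that of Padi4, 0.76 to 1.60. The pools did not rank the genes alike: nonarthritic pool 1 was the higher of its pair in 4 of the 7 genes and arthritic pool 2 in 5 of the 7.

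The families of these genes did not move as blocks. Relatives under the olfactory receptor percentiles on the 4 arrays could not show this. They were 3 formyl peptide receptor, 2 peptidylarginine deiminase, 2 Ly6 and CD177 and 1 resistin family genes. Of 6 measured TREM family genes 4 rose and 0 fell in limma (0 also at an unadjusted p under 0.05): besides Trem1 and Trem3, Treml2 was at 0.97 ± 0.19 and Treml4 at 0.61 ± 0.16. Trem2, the TREM receptor of macrophages and osteoclasts, had 11.04 and 10.80 in the nonarthritic and 11.16 and 11.03 in the arthritic pools, a difference of 0.18 ± 0.17 (adjusted p = 0.557). The platelet receptor Treml1 was at -0.15 ± 0.17. In the RefSeq gene order Trem1, Trem3, Treml4 and Treml2 lie side by side at one end of the cluster and Trem2 and Treml1 at the other. Without nonarthritic pools 1 and 2 and arthritic pools 1 and 2 in turn, 2, 2, 1 and 0 TREM family genes rose.

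Of 4 measured formyl peptide receptor genes only Fpr2 rose (limma), and Fpr-rs3, Fpr-rs4 and Fpr-rs6, which code for receptors of the vomeronasal organ, had differences of -0.04, -0.24 and 0.06. These 3 genes were under the olfactory receptor percentiles on the 4 arrays, so a fall or a small change in them would not show. Fpr1, Fpr3 and Fpr-rs7 were not measured, so these data cannot set Fpr2 apart from its family. Of the 4 measured peptidylarginine deiminase genes Padi4 alone passed the test. Padi2, the widely expressed member, was at 0.11 ± 0.17 (limma adjusted p = 0.735), Padi3 at 0.02 and Padi6 at 0.12. With its probe sets averaged, Padi2 was at -0.27 and did not pass, so the direction of its difference depended on the probe sets used. Padi3 and Padi6 were also under the olfactory receptor percentiles on the 4 arrays, so a small change in them would not show.

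The resistin family split. Retnlg rose, while its genomic neighbour Retnla, a product of macrophages in type 2 immunity, fell from 12.00 and 12.75 to 5.85 and 4.89. The arthritic values lay under the olfactory receptor percentiles, so this fall may be understated. Retn, the resistin gene of mouse fat, fell by 3.31 ± 0.20 on the log2 scale, from 12.21 and 12.11 to 9.12 and 8.59 (adjusted p = 0.000136). Retnlb, a gut gene, was at -0.11 ± 0.18, with values under the olfactory receptor percentiles on the 4 arrays. These 3 calls were kept under each alternative run. Retnla and Retnlg have related sequences, and their probes may read more than 1 gene.

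Among 14 measured genes of the Ly6 and CD177 family 4 rose and 2 fell. Ly6i (1.08 ± 0.23) and Plaur, the urokinase receptor (1.01 ± 0.20), rose beside Ly6g and Cd177. Ly6c1, a gene of endothelium and lymphocytes, fell by 1.62 ± 0.31 on the log2 scale, and the complement regulator Cd59a fell by 0.99. Ly6c2, which marks inflammatory monocytes, read 10.84 and 11.19 in the nonarthritic and 10.58 and 11.13 in the arthritic pools, a difference of -0.16 ± 0.22 (95% interval -0.68 to 0.36). Ly6c2 is a near copy of Ly6c1, so the 2 values may not be independent. Without the pools in the same order, 1, 1, 1 and 0 genes of the family rose and 0, 0, 1 and 0 fell.

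**Figure D3:**
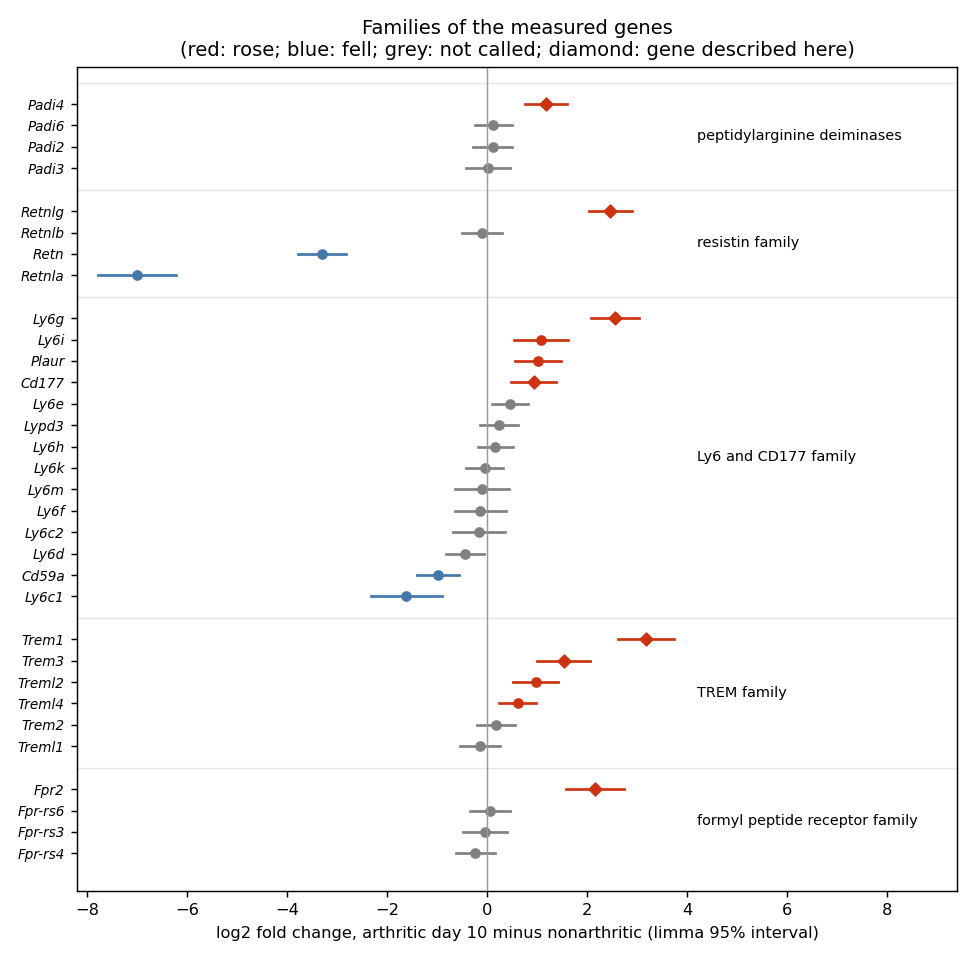
Log2 fold change (arthritic day 10 minus nonarthritic) of the measured genes of 5 families with limma 95% intervals, red for genes that rose, blue for genes that fell, grey for genes not called and diamonds for the 7 genes described. Retnla (-7.00) and Retnlg (2.46) lie at opposite ends of the resistin family, while Fpr2 and Padi4 are the red points of their families.

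Ligands, partners and signalling genes were taken from lists. The 6 measured genes of the formyl peptide receptor ligand list were Anxa1, Saa2, Saa3, Camp, Ctsg and Lcn2. Lcn2 is counted with this list, although it is not an established ligand of these receptors. Of these, Saa3 rose by 3.54 ± 0.46 and Saa2 by 0.94 ± 0.25 on the log2 scale. Saa2 lay under the olfactory receptor percentiles on the 4 arrays, so it was not shown to be above background in either group. Saa3, a locally made serum amyloid A, had a mean of 8.86 ± 1.22 (SD, n = 2 pools) in the nonarthritic pools, which stood 1.72 apart, and read 12.34 and 12.46 in the arthritic pools. Ligand genes that rose numbered 2, 1, 0 and 0 without the pools in the same order, and 1 with quantile normalization again. The number was 3, Lcn2 among them, with arrays centred on their medians and with an intensity trend in the fit. Anxa1, the annexin that acts on Fpr2 to end inflammation, was at -0.29 ± 0.15 (limma adjusted p = 0.259). Of 14 genes of G protein signalling below the receptors 3 rose and 0 fell in limma (0 also at an unadjusted p under 0.05), with a median of 0.35: the phospholipase Plcb2 (1.14 ± 0.18), Arrb2, which uncouples receptors (0.99), and the GTPase Rac2 (0.85). Without the pools in the same order, 1, 0, 0 and 0 of them rose, and 5 rose when arrays were centred on their medians or dim genes were left out.

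Of 12 genes that act with TREM receptors 6 rose and 0 fell (limma; 0 also at an unadjusted p under 0.05), with a median of 0.71. Tyrobp, which encodes the adaptor DAP12, rose by 1.20 ± 0.17 on the log2 scale, from 11.27 and 11.03 to 12.27 and 12.44 (adjusted p = 0.00299). Pglyrp1, a granule protein that binds TREM-1, rose by 1.40 ± 0.25, Vav1 by 1.74, Pik3cd by 1.25, the phospholipase Plcg2 by 1.04 and the kinase Syk by 0.89. Hcst, the DAP10 adaptor, was at 0.00 ± 0.19. In all 12, arthritic pool 2 was the higher arthritic pool and nonarthritic pool 1 the higher nonarthritic pool. Without the pools in the same order, 2, 0, 2 and 0 of them rose.

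Of the CD177 partners, the integrin subunits Itgam (0.62 ± 0.17) and Itgb2 (0.72 ± 0.17) rose. Neither passed with any 1 pool left out. Pecam1 was at 0.03 ± 0.17 and Prtn3, proteinase 3, at 0.24 ± 0.16. Of 9 genes that act with PAD4 in chromatin release 3 rose and 0 fell (limma; 0 also at an unadjusted p under 0.05), namely the oxidase subunit Ncf4 (1.32 ± 0.17), Rac2 and the pore-forming Gsdmd (0.66). With the probe sets of each gene averaged, Gsdmd was at 0.43, and 2 of the 9 genes rose. The catalytic oxidase subunit Cybb was at -0.14 ± 0.15, and the granule enzymes Elane and Mpo at -0.10 and 0.15. Of the 9, 1, 0, 1 and 0 rose without the pools in the same order.

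Marker lists of cell types give the setting of these values. Of 17 measured neutrophil identity genes 14 rose, with a median of 2.68, among them Mmp9 (3.84), S100a8 (3.68) and Cxcr2 (3.63), and Cebpe (0.03), Gfi1 (-0.02) and Lcn2 (0.58) did not pass. The summed linear signal of the 17 was 7240 and 5822 in the nonarthritic and 27255 and 33902 in the arthritic pools. In all 17, arthritic pool 2 was the higher of the arthritic pools, and 12, 8, 11 and 4 rose without the pools in the same order. Of 8 granule genes of neutrophil precursors 0 rose and 0 fell in limma, with a median of 0.30, and 2 were higher at an unadjusted p under 0.05, Ltf (0.41) and Ngp (0.58). Ngp alone passed in some alternatives, at 0.70 with quantile normalization again and at 0.67 with arrays centred on their medians. Of these 8 genes 5, Ngp, Elane and Mpo among them, were under the olfactory receptor percentiles on the 4 arrays. Ngp was thus not shown to be above background in either group.

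Monocyte markers, which share Itgam with the neutrophil list, had 4 rising members of 8 and a median of 0.26. Besides Itgam, the IgG receptor Fcgr1 (1.59 ± 0.19), the lipopolysaccharide co-receptor Cd14 (0.85) and the chemokine receptor Ccr2 (0.69) rose, while Csf1r was at -0.11, Cx3cr1 at -0.35, Nr4a1 at -0.21 and Ly6c2 as given above. The number that rose was 1, 0, 0 and 0 without the pools in the same order. Their summed signal was 11224 and 10391 in the nonarthritic and 11127 and 13830 in the arthritic pools. Trem1 and Fpr2 are also made by monocytes, and the part of monocytes in their values was not tested. Of 8 resident macrophage markers 5 fell, from Lyve1 at -2.59 to Folr2 at -1.27, and 1, Cd68 (0.69), rose. All 6 skeletal muscle markers and all 5 adipocyte markers fell, with summed signals of 21367 and 29173 against 4043 and 2610 for muscle and of 16175 and 15838 against 4454 and 2896 for fat. Without the pools in the same order, 6, 3, 6 and 3 muscle, 3, 3, 5 and 2 adipocyte and 3, 1, 3 and 1 resident macrophage markers fell. Muscle and fat markers thus moved with the groups, and their part in the rise of the 7 genes was not tested. Of 7 mast cell, 4 B cell and 5 red cell precursor markers 2 each fell, and of 5 T cell markers 1, Cd4, rose. Of 8 synovial fibroblast markers 4 rose and 2 fell, Clic5 (-2.48) and Htra4 (-1.88), with Prg4 at -0.26. With the pools left out in the same order, 1, 0, 1 and 0 mast cell, 2, 0, 0 and 0 B cell and 0, 0, 0 and 0 red cell precursor markers fell, and 1, 0, 0 and 0 T cell markers rose. Fibroblast markers then had 2, 1, 1 and 0 rising and 0, 0, 2 and 1 falling members. Of 6 eosinophil markers 0 passed (limma; 1, Ccr3 at 0.36, at an unadjusted p under 0.05).

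**Figure D4:**
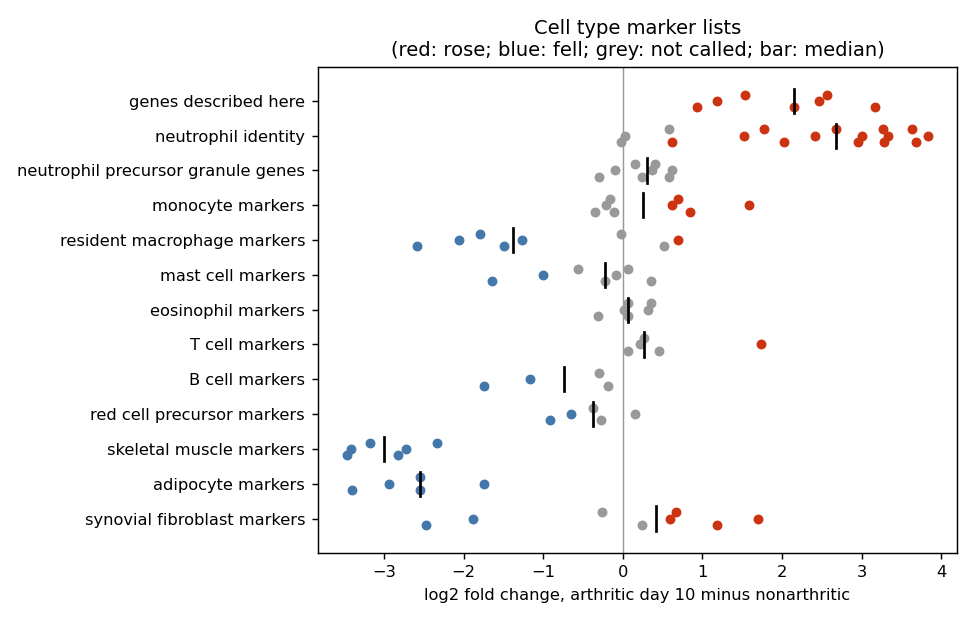
Log2 fold change (arthritic day 10 minus nonarthritic) of each gene of 12 cell type lists and of the 7 genes described, red for genes that rose, blue for genes that fell, grey for genes not called, with a black bar at each list's median. The described genes have a median of 2.15 and neutrophil identity genes one of 2.68, while precursor granule genes have 0.30, muscle markers -3.01 and adipocyte markers -2.55.

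For each of the 7 genes the 3 genes with the nearest profile were taken by the distance between gene-centred log2 values over the 4 arrays, among 13369 other genes. Nearest to Trem1 were Slfn4 (distance 0.14), Csf3r, the receptor for the neutrophil growth factor G-CSF (0.24), and the lectin receptor Clec4e (0.29). Nearest to Fpr2 were Top2a, a topoisomerase of dividing cells (0.13), Klra2 and Tnc. Those of Cd177 were the channel gene Aqp9 (0.05), Sgo1 and Syce2, and those of Padi4 were Tacc3 (0.04), Knl1 and Siglece. Retnlg was nearest to Prnd (0.07), Adamts4 and P4ha3, Trem3 to Ocstamp (0.17), Angptl4 and Prokr2, and Ly6g to Ptx3 (0.36), Gm5150 and Ddah1. Over 4 arrays a profile holds little beyond the step between the groups, and mitosis genes and matrix genes stood among the nearest as well as myeloid genes.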

How the data were processed

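The deposited values of the authors are log2 signals, 1 per probe set and array (41345 probe sets), from 500 ng of total RNA per pool, and run from 2.89 to 14.27. RMA, which corrects background and normalizes between arrays, is named with Affymetrix Power Tools and Affymetrix Expression Console per the submitters' processing notes. Versions were not given in the sources used here, and the range of the values set the scale as log2. No detection calls were used.

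Probe sets were named through the platform annotation: 23521 had 1 symbol, 1814 several and 16010 none. Their highest-mean probe set per gene left 22180 genes, which were fitted together with no filter on dim genes. The fit used limma 3.58.1 in R 4.3.3 (2-sided, 2 residual and 5.98 prior degrees of freedom), after a check on simulated data. Those data were drawn from limma's own model, so the check could not test effects shared by the genes of a pool. Errors are SE from limma. The number of arrays limits the precision, and p-values measure the spread between pools, not mice. Sequences are from RefSeq. The genes, lists and tests were chosen with earlier results of these data known. Named are the 7 genes, genes of the family and pathway lists that passed the test or changed at least 2-fold, relatives and partners of the 7 with any value, and the 3 nearest profiles per gene. Genes of the cell type lists are examples chosen after their values were seen. The summed signals add the linear values of a list's genes. The alternatives were pool number as a block, each pool left out, probe sets averaged, dim genes left out, quantile normalization again, median centring and an intensity trend.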

Additional observations from a re-analysis of the deposited data

How the results depend on the processing

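Of 69 values of the 7 genes under an alternative, 0 turned direction and 56 kept the call. All 13 that lost it came from leaving out a pool, and the 41 under other alternatives kept it. The number of genes of the 7 that rose ranged from 1 to 5 with a pool left out, and 0 fell in each case. Over all genes, 47 to 637 rose and 105 to 584 fell with a pool left out. In those fits the lone pool is assumed to vary like the other group. With pool number as a block, 1216 of all genes rose, and the 7 genes kept their calls, while the rising genes went from 4 to 2 for the TREM family, 6 to 3 and 3 to 1 for signalling below TREM and formyl peptide receptors, 3 to 1 for chromatin release, 2 to 0 for CD177 partners, 2 to 1 for formyl peptide receptor ligands, 4 to 1 for monocyte and 4 to 2 for synovial fibroblast markers. Falling genes went from 2 to 1 for the Ly6 and CD177 family and for red cell precursor markers. The same-numbered pools share only a number in the labels, and the differences between pools 1 and 2 of the groups had a correlation of 0.18 across genes, which are not independent replicates. The dim gene filter (mean above 6.90) kept 6 of the 7 genes, leaving out Padi4. Centring on array medians moved the median of all genes from 0.005 to 0.1. Over the lists, 76 of 176 counts moved by over 1.5 times with a pool left out and 23 of 264 under other alternatives. Of 76 called genes of the lists, 0 turned direction under an alternative. No background signal per probe set was used, so nonarthritic levels near those of olfactory receptor genes may limit the size of the fold changes.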
